A study of Mus musculus with 6 samples.

Results

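Expression of the platelet-derived growth factor (PDGF) family and of pericyte and fibroblast surface markers was examined in mouse endothelial cells. The cells did or did not overexpress SOD3, the extracellular superoxide dismutase. The set holds 10 genes, namely the ligands Pdgfa, Pdgfb, Pdgfc and Pdgfd, the receptors Pdgfra and Pdgfrb, and the markers Cspg4, Rgs5, Thy1 and Fap, out of 22229 genes named on the array. They were found by the gene symbol in the description or the accession of each non-control spot, which gave 21 of 59305 spots and 12 of 55681 probes. 1G11-mock and 1G11-SOD3 are lines of 1G11 mouse microvascular endothelial cells from the C57BL/6NCrLBR strain, the latter overexpressing Sod3 and the former not. All arrays carried RNA from cells kept for 6 h in conditioned medium of N202.1A mouse mammary cancer cells, so that no array shows either line without this medium. There were 3 1G11-mock and 3 1G11-SOD3 samples, each on 1 single-color Agilent array. Whether the SOD3 line is a clone or a pool is not given in the sources used here. The comparison asks which of these genes differ between the lines in the tumor-conditioned setting.

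PDGF ligands are secreted dimers, and the PDGF-C and PDGF-D forms become active only after proteases remove an inhibitory domain. The ligands bring PDGFRα and PDGFRβ together at the cell surface, and these tyrosine kinases then recruit adaptors that pass the signal to the Ras, PI3-kinase and phospholipase C routes. In blood vessels PDGF-B from the endothelium acts on PDGFRβ of pericytes, the mural cells that cover capillaries, while PDGFRα is best known from fibroblasts and other mesenchymal cells.

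Pdgfrb was the only gene of the set whose level differed between the lines by the threshold of the comparison, being 5.26-fold higher in 1G11-SOD3. The ligand genes Pdgfa, Pdgfb and Pdgfc were detected on every array of both lines and none of them passed the threshold. Pdgfra was detected on every array too, and its difference of 1.43-fold did not pass and depended on the place of its spots on the array. Pdgfd, Rgs5 and Fap cleared the background nowhere, and Cspg4 and Thy1 on 1 array each.

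Detection is given first because it decides which values can be compared. A spot is said here to clear the background when the scanner software marks it as well above background, and this held for 34.2% to 43.8% of non-control spots per array. Of the 12 probes, 5 cleared it on all 6 arrays, and the Pdgfrb probe did so on every 1G11-SOD3 array and on 1 1G11-mock array. The other 6 probes comprise those of Pdgfd, Rgs5, Fap, Cspg4 and Thy1 and a dim probe of Pdgfb. Values below are log2 intensities after normexp background correction (offset of 50) and quantile normalization, differences are 1G11-SOD3 minus 1G11-mock, and a probe was called when it differed by more than 2-fold with an adjusted p under 0.05 in limma over all probes. Of all probes, 1.87% were called higher and 1.06% lower in 1G11-SOD3, and a single call among 12 probes is too small a count to be read against these shares.

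Place on the array moved with the values. The array has 384 rows and 164 columns, and in a central block of spots, here called the middle, differences between the lines ran higher than elsewhere. The median excess was 1.74 log2 units over 128 probes printed 10 times, which were those of higher signal with copies both in the middle and elsewhere. The middle held 6606 spots, among them 3 of this set, which are the dim Pdgfb probe and 2 of the 10 copies of the Pdgfra probe. The differences of detected genes of the set and of called genes are therefore also given after a position adjustment, in which a smooth surface of each array's deviation from the mean of all arrays was subtracted with the spots of this set held out. After it 0.731% of probes were called higher and 0.911% lower. Each line occupied its own row of the slide, and effects of line and of slide row cannot be told apart. The Sod3 probe, which also lies in the middle, was at 13.61, 12.66 and 9.86 in 1G11-mock and at 16.37, 16.30 and 16.26 in 1G11-SOD3, in the direction of the labels (log2 difference 4.27, limma adjusted p = 0.00764; 2.64 and 0.0233 after position adjustment).

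The sequences that matter for reading the ligand and Pdgfra results are the starts of their 60-base probes, of which 30 bases are shown 5′ to 3′. The Pdgfa probes share 51 bases, and the capitals mark the shared part, so that they read nearly the same stretch of the transcript and are no independent measurements. The Pdgfb probes share no stretch and lie apart, one bright and one dim, and the Pdgfra probe is the sequence that was printed 10 times.
Pdgfa A_55_P2007470: actgtagcaCTCAGAGAGACAGTGAGAAAG
Pdgfa A_55_P2125588: CTCAGAGAGACAGTGAGAAAGCTTCCTTGT
Pdgfb A_55_P2047310: gttccttctgcttccttcagtttgtaaagt
Pdgfb A_55_P1974441: actccaggctgcaggcttctcttgactcca
Pdgfra A_51_P345649: tgtatatatctgttgctatgtagacttgga
By the array annotation, whose build is not given in the files, the Pdgfa probes lie at chr5:139452934-139452993 and chr5:139452925-139452984, the Pdgfb probes at chr15:79826376-79826435 (bright) and chr15:79827438-79827497 (dim), and the Pdgfra probe at chr5:75593888-75593947. The exon or untranslated region that each probe reads was not determined here.

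**Figure D1:**
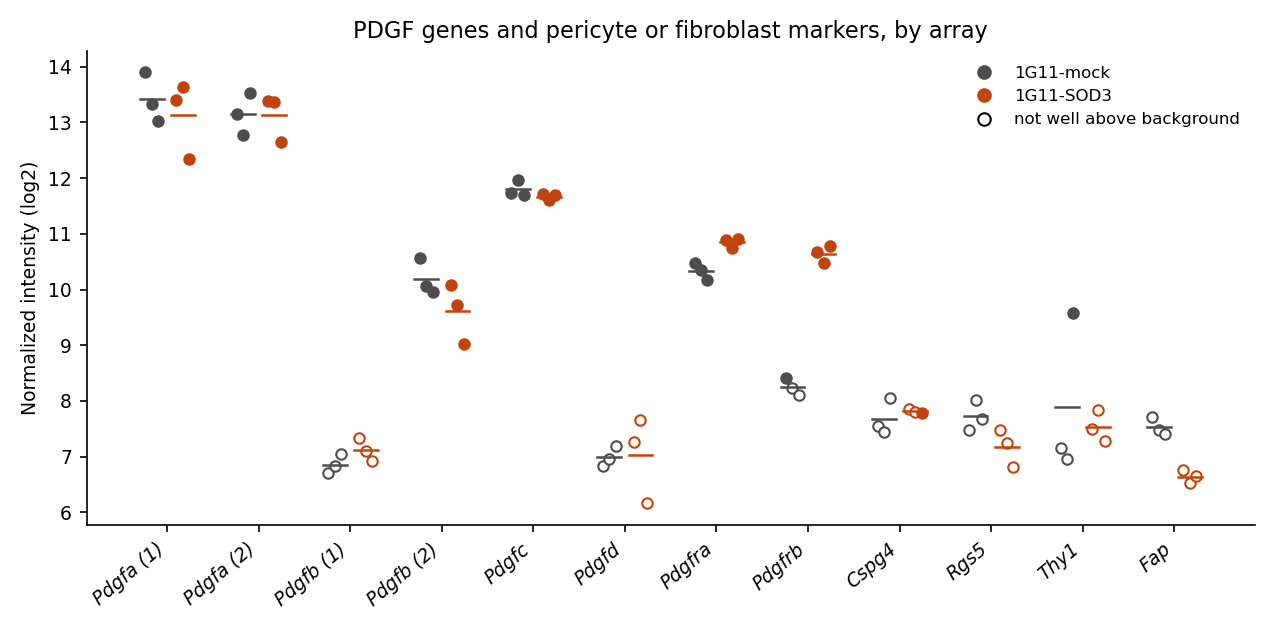
Normalized log2 intensity (vertical axis) of each of the 12 probes on the 3 1G11-mock (grey) and 3 1G11-SOD3 (orange) arrays, with the mean of each line as a bar; open circles did not clear the background, and Pdgfa and Pdgfb have 2 probes each, Pdgfb (1) being the dim one. Pdgfrb separates from 8.11 to 8.41 in 1G11-mock to 10.48 to 10.79 in 1G11-SOD3, and the ligand probes of the lines overlap.

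Among the ligands, Pdgfa encodes the A chain, the main partner of PDGFRα. Its first probe read 13.90, 13.34 and 13.03 in 1G11-mock and 13.41, 13.64 and 12.35 in 1G11-SOD3, and its second 13.15, 12.77 and 13.52 against 13.38, 13.37 and 12.65. The lines overlapped on both probes, and 1G11-SOD3 replicate 3 was the lowest array on both. The differences were -0.29 (95% interval -1.06 to 0.48, limma adjusted p = 0.768) and -0.02 (-0.64 to 0.61, adjusted p = 0.989), and after position adjustment 0.18 and 0.19. The sign of a Pdgfa difference thus turned with the adjustment and is not settled.

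Pdgfb encodes the B chain, which binds both receptors and is the ligand through which endothelium attracts pericytes. Its bright probe read 10.56, 10.07 and 9.96 in 1G11-mock and 10.09, 9.72 and 9.03 in 1G11-SOD3. The means were 10.19 ± 0.32 and 9.61 ± 0.54 (SD, n = 3), and the highest 1G11-SOD3 array reached into the 1G11-mock range. The difference of -0.59 (95% interval -1.24 to 0.07) did not pass, with an adjusted p of 0.413 in limma, and it was -0.74 (adjusted p = 0.303) after position adjustment. The dim probe, in the middle, lay between 6.70 and 7.33 on the 6 arrays, cleared the background on none, and gives no fold change.

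Pdgfc encodes a ligand chain that acts mainly through PDGFRα. It read 11.74, 11.97 and 11.70 in 1G11-mock and 11.71, 11.60 and 11.69 in 1G11-SOD3. All 6 values lay close together and the lines overlapped, with a difference of -0.14 (95% interval -0.61 to 0.33, limma adjusted p = 0.829; -0.2 after position adjustment). Pdgfd, whose product acts through PDGFRβ, read between 6.16 and 7.66 and cleared the background on no array.

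Of the receptors, Pdgfrb encodes PDGFRβ, the receptor of the B and D chains. It was at 8.41, 8.24 and 8.11 in 1G11-mock and at 10.67, 10.48 and 10.79 in 1G11-SOD3. The lines were far apart, with more than 2 log2 units between the highest 1G11-mock and the lowest 1G11-SOD3 array against a spread within each line of 0.15 (SD, n = 3). The gap was present before any correction, since the mean pixel intensity of the spot was 464, 424 and 447 in 1G11-mock and 1900, 1660 and 2810 in 1G11-SOD3, over local backgrounds of 75 to 93. The difference was 2.40 (SE 0.221), or 5.26-fold (95% interval 3.76 to 7.36), with a limma adjusted p of 0.000363.

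The Pdgfrb spot lies outside the middle, in row 61 and column 58. The 108 spots around it that were bright enough to compare had a median difference of 0.11, and after position adjustment Pdgfrb differed by 2.21, or 4.64-fold (adjusted p = 0.00031). It was called under all 14 other settings that used every array (differences of 1.99 to 2.99, adjusted p at most 0.00229) and with each array left out in turn (2.27 to 2.49, adjusted p at most 0.00483). The 1G11-mock level is less sure than the 1G11-SOD3 level, because only 1G11-mock replicate 1 gave a signal that cleared the background, and there is 1 probe for the gene. In RNA from whole cultures, more cells that express Pdgfrb and more Pdgfrb RNA per cell cannot be told apart.

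Pdgfra encodes PDGFRα, which binds the A, B and C chains. The mean of its copies was 10.48, 10.35 and 10.17 in 1G11-mock and 10.89, 10.75 and 10.90 in 1G11-SOD3. The lines did not overlap, as was the case for 20.6% of all probes with a value on every array, and the difference of 0.52 (SE 0.217, 95% interval 0.04 to 0.99) had a limma adjusted p of 0.3. The Pdgfra, Pdgfrb, Rgs5 and Fap probes were the 4 of 12 without overlap, the first pair being higher in 1G11-SOD3 and the latter pair lower and clear of the background on no array.

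The copies of the Pdgfra probe showed how far place entered this difference. The 2 copies in the middle differed by 1.42 and 1.56, and their lines did not overlap. The 8 copies elsewhere differed by -0.36 to 0.98 with a median of 0.13, of which 5 were higher in 1G11-SOD3 and none was free of overlap. The copy at -0.36, in row 345 and column 164, had an outlier spot of 9.39 on 1G11-SOD3 replicate 1. That spot was dropped from the probe means but kept in the values by copy, so that the -0.36, the median and the count of 5 include it. On the 1G11-mock arrays the middle copies minus the others gave -0.68, -0.51 and -1.84, so that they were dimmer on each. On the 1G11-SOD3 arrays they gave 0.31, 0.23 and 0.27, of which the 0.31 is raised by the low outlier spot among the others. The copies nearest to the middle among the others, in rows 173 and 210 and columns 48 and 50, had the next largest differences, 0.65 and 0.98.

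Without the middle copies the Pdgfra difference was 0.27 (limma adjusted p = 0.624). After position adjustment the 10 copies differed by 0 to 0.65, the copy with the outlier spot being the one at 0, and their SD fell from 0.66 to 0.191. With that spot dropped, the probe differed by 0.46 (limma adjusted p = 0.19). The Pdgfra difference was larger in the middle than elsewhere by 1.28, a value that keeps the outlier spot. The median over the 128 probes of higher signal printed 10 times was 1.74, and it was 0.3 after adjustment. No setting gave a call for Pdgfra.

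**Figure D2:**
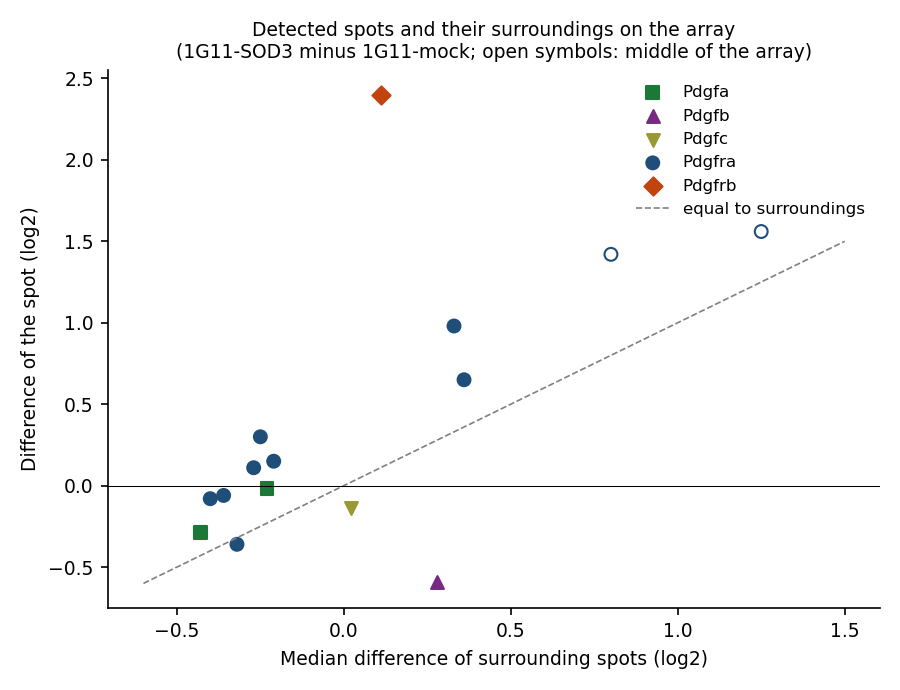
Difference of each detected spot of the PDGF genes between the lines (vertical axis, log2) against the median difference of the spots around it (horizontal axis, log2), with open symbols in the middle of the array and a dashed line where both are equal. The 10 Pdgfra copies rise with their surroundings from -0.36 to 1.56, the lowest including an outlier spot on 1 array, while the Pdgfrb spot lies at 2.40 with surroundings at 0.11.

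The pericyte and fibroblast markers of the set mostly did not clear the background in either line. Cspg4 encodes the proteoglycan NG2 of pericytes and read 7.55, 7.45 and 8.05 in 1G11-mock and 7.85, 7.81 and 7.78 in 1G11-SOD3, clearing the background on 1 1G11-SOD3 array. Rgs5, a regulator of G protein signaling typical of pericytes, read 7.48, 8.02 and 7.67 against 7.47, 7.25 and 6.82. Neither gene gives a fold change at these signals.

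Thy1 encodes a surface glycoprotein of fibroblasts and T cells. It read 7.16, 6.95 and 9.58 in 1G11-mock and 7.49, 7.83 and 7.28 in 1G11-SOD3, and 1G11-mock replicate 3 was the only array on which it cleared the background. The other 1G11-mock arrays were below every 1G11-SOD3 array, so that no direction is given. Fap encodes fibroblast activation protein, a surface protease, and read 7.72, 7.47 and 7.40 against 6.76, 6.52 and 6.65. Fap was lower in 1G11-SOD3 without overlap, but cleared the background on no array, and its adjusted p was 0.056 in limma. Its difference is therefore not read as a fold change. It was called lower with an offset of 16, with scaling to the 75th percentile and with the processed signal (adjusted p down to 0.0107).

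**Figure D3:**
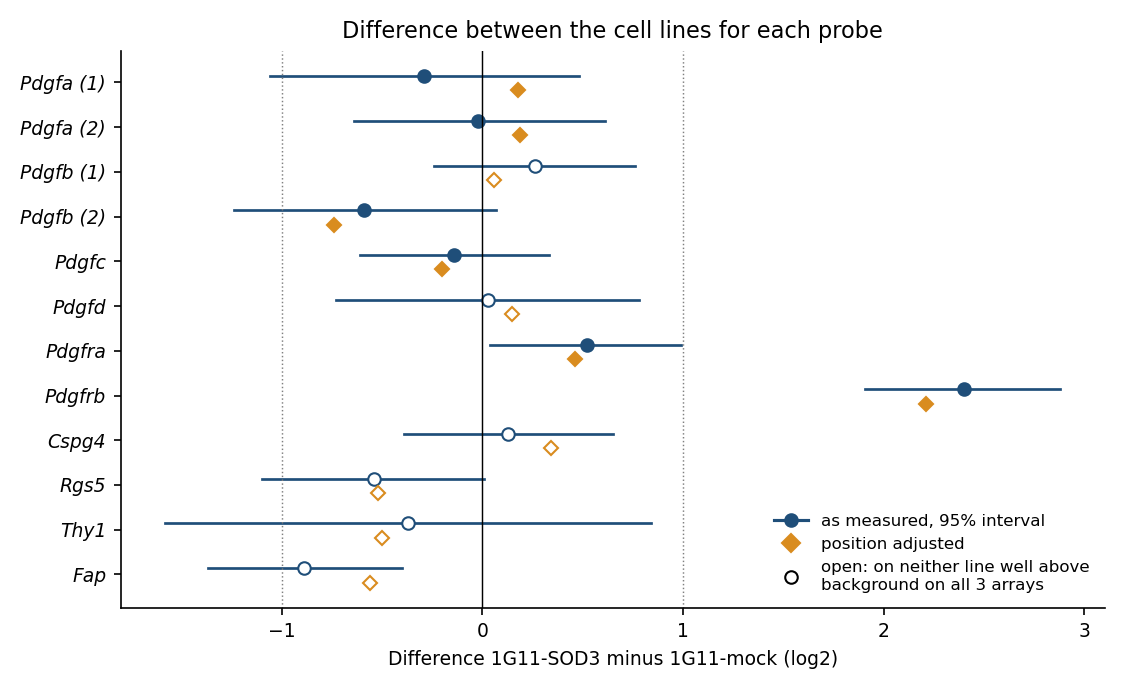
Difference between the lines for each probe (horizontal axis, log2) with its 95% interval as measured (blue circles) and after position adjustment (orange diamonds), dotted lines marking 2-fold; open symbols are probes that cleared the background on all 3 arrays of neither line. The Pdgfrb interval, 1.91 to 2.88, is the only one wholly beyond 2-fold, and the Pdgfa symbols change sign with the adjustment.

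The other genes of the pathway are described from 3 lists, each gene being represented by its brightest probe. Over all named genes 2.95% were called higher and 1.72% lower, with a median difference of -0.03. Of 7 genes for ligand activation and receptor partners, 1 was called higher and 2 lower (median difference -0.28). Pdgfrl, which encodes a secreted protein resembling the PDGF receptors, rose from 9.07 to 10.01 in 1G11-mock to 11.22 to 11.68 in 1G11-SOD3, a difference of 1.89 (limma adjusted p = 0.0041; 1.9 after position adjustment). Pdgfrl kept its call in every setting and with each array left out.

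Ptprj, a receptor phosphatase that acts on PDGFRβ, fell on its brightest probe, with a difference of -1.91 (limma adjusted p = 0.00142) that was -1.21 (0.00392) after position adjustment, while the other 3 probes of the gene, which were not called, differed by -0.80, -0.70 and 1.48, the latter lying in the middle. Lrp1, an endocytic receptor that binds PDGFRβ, fell by 1.13 (adjusted p = 0.0303; the same size after position adjustment, 0.0468), a call that was lost in 5 of 6 fits with an array left out, namely all but that without 1G11-mock replicate 3 (adjusted p up to 0.152), and with an offset of 16 (0.0729), scaling to the 75th percentile (0.0848) and the processed signal (0.101). Furin and Plat, proteases that process the ligands, and the co-receptor Nrp1 differed by -0.44, 0.27 and 0.61 with adjusted p of 0.376 or more.

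None of 14 adaptors and signal transducers of the receptors was called, in limma (3 of them at an unadjusted p under 0.05), with a median difference of -0.04 and 9 of 14 clearing the background on all 6 arrays. The largest difference among them, 2.31 for Crk (limma adjusted p = 0.133), came from a probe in the middle and was 0.92 after position adjustment. Crk was called higher only with scaling to the 75th percentile (2.39, limma adjusted p = 0.00222). Of 13 genes that PDGF is known to induce, 1 was called higher and 2 lower (median -0.36). The monocyte chemokine genes Ccl2 and Ccl7 fell, with differences of -3.48 (limma adjusted p = 0.000379) and -2.78 (adjusted p = 0.00114), which were -3.63 and -2.65 after position adjustment. A share of 0.4 of the Ccl2 spots lay in the middle, and its call held with the middle left out. The transcription factor gene Jun was higher by 4.32 (adjusted p = 0.00297), but its probe lies in the middle and its difference was 1.97 (0.0126) after position adjustment. The early genes Fos, Egr1, Egr2 and Myc, by contrast, differed by 0.24, -0.17, -0.75 and -0.59 and were not called. Fos cleared the background on only 1 array of each line, so its value is not read as a fold change. Egr2 read 8.70, 8.33 and 9.99 in 1G11-mock, and its difference ranged from -1.11 to -0.27 with an array left out.

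Further pericyte and mural cell genes were read from a list of 17, of which 8 cleared the background nowhere and 6 on all arrays. Of these 17, 5 were called higher and none lower (median difference 0.05), 4 of the 5 with most or all of their spots outside the middle. Acta2, the smooth muscle actin gene, was at 9.90, 10.09 and 9.96 in 1G11-mock and 13.48, 13.15 and 12.35 in 1G11-SOD3, a difference of 3.01 (limma adjusted p = 0.000379; 2.58 after position adjustment). A share of 0.3 of the Acta2 spots lay in the middle, and its call held with the middle left out. Cnn1, which encodes the smooth muscle protein calponin, did not clear the background in 1G11-mock. By an approximate bound it was at least 4.7-fold higher in 1G11-SOD3 (limma adjusted p = 0.00312). It stayed called after position adjustment, with a difference of 2.7 (0.0106). Cd248, a surface protein of pericytes and fibroblasts, rose by 2.07 (adjusted p = 0.0129) and Tagln, an actin-binding protein of smooth muscle, by 1.45 (adjusted p = 0.0109), and these differences were 1.5 and 1.41 after position adjustment.

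These mural calls were not equally firm. The Cd248 call was lost without 1G11-SOD3 replicate 1 (limma adjusted p = 0.0522) and the Tagln call without 1G11-SOD3 replicate 2 (0.0509), while those of Acta2 and Cnn1 held with each array left out. Anpep, an aminopeptidase gene whose probe lies in the middle, was at least 4.92-fold higher by the same kind of bound without position adjustment. After position adjustment Anpep differed by 0.71 (limma adjusted p = 0.371). Des, Kcnj8, Abcc9, Myh11, Ndufa4l2, Vtn, Angpt1 and Heyl were the genes of the list that cleared the background nowhere, while Acta2, Cd248, Tagln, Notch3, Mcam and Tbx18 cleared it on all 6 arrays and Cnn1, Anpep and Higd1b on all 1G11-SOD3 arrays. Higd1b, in the middle, was called lower only after position adjustment (-1.2, adjusted p = 0.026). The mean level of the list, without position adjustment, ranged from 8.36 to 8.70 on 1G11-mock and from 9.09 to 9.41 on 1G11-SOD3 arrays. These means include 3 probes in the middle. The median difference of the list was 0.05 before and after position adjustment.

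Of 16 fibroblast markers, 6 were called higher and none lower, with a median difference of 0.56. Col1a1, a chain of type I collagen, was at 12.15, 11.31 and 10.50 in 1G11-mock and 14.43, 14.02 and 14.80 in 1G11-SOD3, a difference of 3.1 (limma adjusted p = 0.00148). Pdpn, the mucin-like glycoprotein podoplanin, rose by 2.6 (adjusted p = 0.000386) and Prrx1, a mesenchymal transcription factor, by 1.91 (adjusted p = 0.00246), and these 3 calls held in every setting and with each array left out. After position adjustment the differences were 2.51 for Col1a1, 2.02 for Pdpn and 1.42 for Prrx1. The Pdpn probe cleared the background on 1 1G11-mock array. The other 3 called genes encode the matrix proteins type III collagen (Col3a1, 1.43, adjusted p = 0.0237; 1.68 after position adjustment), lumican (Lum, at least 2.24-fold, adjusted p = 0.03) and type I collagen (Col1a2, at least 1.36-fold, adjusted p = 0.0224). The Lum and Col1a2 folds are approximate bounds, as for Cnn1.

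The count of 6 fibroblast markers was 4 after position adjustment and 3 without 1G11-mock replicate 2. After position adjustment Lum differed by 1.59 (limma adjusted p = 0.0827) and Col1a2 by 0.93 (0.0741), the latter under 2-fold, and neither passed. The Col3a1 call was lost without 1G11-mock replicate 1 or 2 or 1G11-SOD3 replicate 3 (limma adjusted p of 0.0665 to 0.0912). That of Lum was lost without any one 1G11-mock array or 1G11-SOD3 replicate 3, and that of Col1a2 without 1G11-mock replicate 2 or 3 or 1G11-SOD3 replicate 1 or 2 (adjusted p up to 0.104 for each gene). Both were also lost without background correction, and Col1a2 with scaling to the 75th percentile (0.107). The Lum difference was 1.27 without 1G11-SOD3 replicate 3. The fibroblast markers Vim and S100a4 cleared the background on all arrays of both lines and differed by 0.03 and -0.17, without a call. The mean level of the list, without position adjustment, ranged from 10.62 to 11.07 on 1G11-mock and from 11.62 to 12.06 on 1G11-SOD3 arrays. The part of other cells in the Pdgfrb difference was not tested.

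The endothelial label was read from 18 genes, of which 7 cleared the background nowhere. These were Tek, Tie1, Emcn, Erg, Sox17, Robo4 and Cdh5 (VE-cadherin), the last at means of 6.92 and 7.01. The study's methods state that the cells were regularly checked by staining for VE-cadherin protein. Whether the Cdh5 probe can detect the transcript was not tested, as the gene has no other probe here. Pecam1 cleared it on 3 of 6 arrays (difference -0.51, limma adjusted p = 0.447), and Kdr, the main receptor of vascular endothelial growth factor, on all 6 (-0.51, adjusted p = 0.3). Vwf, the von Willebrand factor gene, fell, with a difference of -1.66 (adjusted p = 0.00344; -1.43 after position adjustment), and Egfl7, a secreted endothelial protein, was called higher at 1.83 (0.0173) but differed by 0.83 (0.15) after position adjustment and lost its call without 1G11-mock replicate 2 or 3 or 1G11-SOD3 replicate 1 or 2 (adjusted p up to 0.0762). The mean level of the list, without position adjustment, was 8.38 to 8.56 on 1G11-mock and 8.52 to 8.80 on 1G11-SOD3 arrays. These means include 3 probes in the middle. The median difference of the list was 0.07 as measured and -0.09 after position adjustment. Of the 18 endothelial genes, 7 had an unadjusted p under 0.05 in limma and 2 were called. None of 7 leukocyte and 5 epithelial markers was called in limma (0 of either list at an unadjusted p under 0.05).

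**Figure D4:**
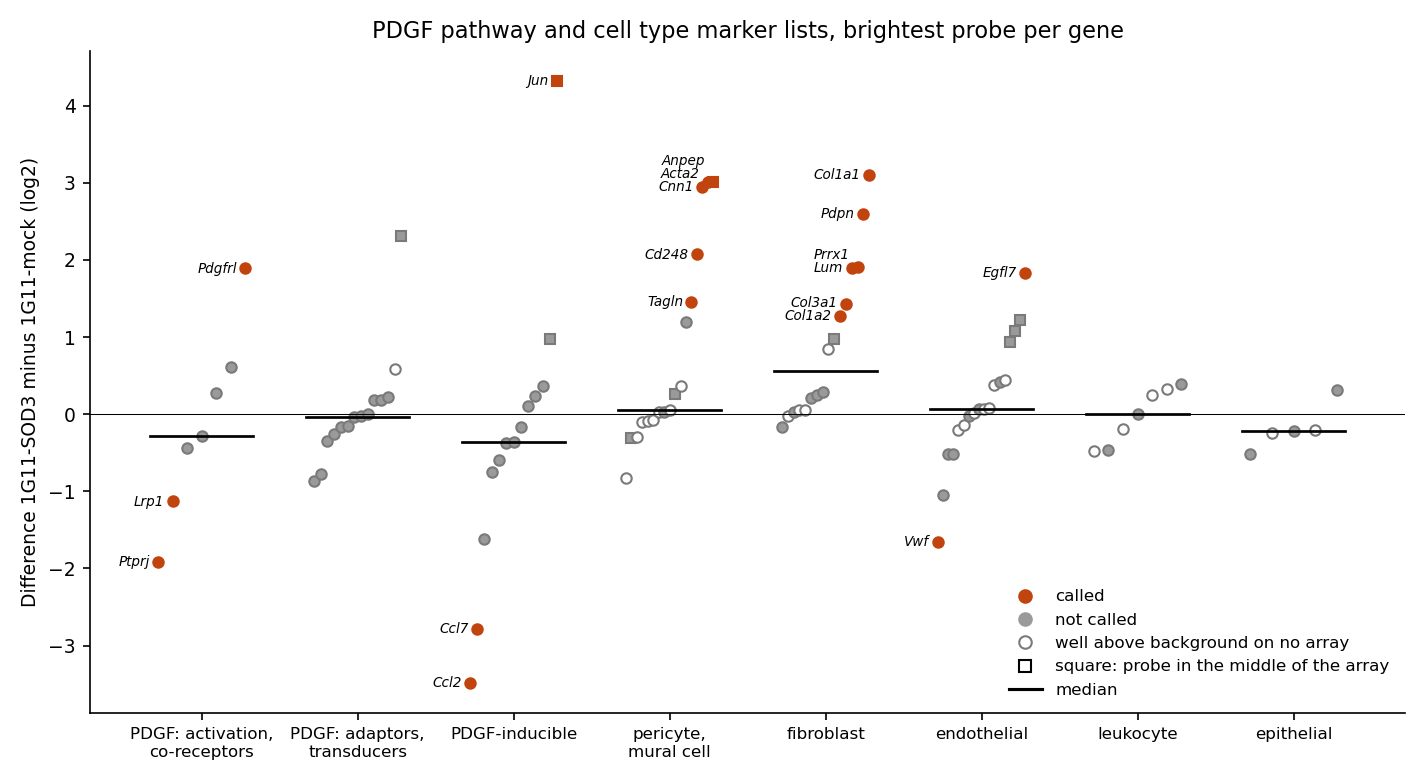
Difference between the lines (vertical axis, log2) for the genes of 8 lists, 1 point per gene by its brightest probe and a bar at each median; orange points are called, open points cleared the background nowhere and squares lie in the middle of the array. The called pericyte and fibroblast markers all lie above 0, the adaptors hold no called gene, and Ccl2 and Ccl7 are the lowest points at -3.48 and -2.78.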

How the data were processed

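RNA of 3 independent samples per cell line was hybridized to single-color Agilent arrays, and replicate numbers come from the labels. The authors deposited, for each array, spot intensity values (mean and median pixel intensity, local background and processed signal, not normalized) from Feature Extraction 10.7.3.1 with its 0 or 1 quality flags. They also deposited a table of background corrected, quantile normalized log2 values (normexp, offset of 50; median of 7.52 per array), which could be recomputed to within 0.005.

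Here control spots were left out, normexp (offset of 50) was applied to the mean intensity with the local background median, and log2 values were quantile normalized (limma 3.58.1 under R 4.3.3). Outlier spots were dropped (1 Pdgfra copy on 1 array) and the spots of a probe were averaged. The values given by copy and by place on the array keep outlier spots. Lines were compared by limma's empirical Bayes test with Benjamini-Hochberg adjustment over 55681 probes, of which 27656 were named by accession and 1594 by description. The position adjustment used thin-plate surfaces (mgcv 1.9.3, 100 basis functions), fitted separately for bright spots (clear of background on 3 or more arrays) and for other spots, a split chosen after seeing the data. The test was checked on simulated data. Its precision is limited by 3 arrays per line, for which the smallest p of an exact permutation test (2-sided) is 0.1.

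The members, the lists and the rule for named genes (all members, Sod3, up to 5 called genes per list with the largest difference, and Cdh5, Pecam1 and Kdr) were chosen with earlier results of these data known. Notch3, Cxcl1, Flt1, Esam and all other genes named for a value that was not called, and Col1a2, were named after their values were seen. A "bound" fold, worded above as "at least", uses the lowest signal well above background, on average 8.08 for 1G11-mock and 7.72 for 1G11-SOD3 (log2). Some spots that did not clear the background read higher than this, such as Pdgfrb at 8.24 on 1G11-mock replicate 2. The bound is therefore approximate. Arrays with the same replicate number deviated together from the means of their lines, with correlations of 0.165, 0.103 and 0.157 over 16273 probes, so the number was used as a replicate block in an alternative. Other alternatives were the background correction, offset, spot summary, scaling, filters, variance trend, deposited table, position, middle of the array and each array left out. Figures were drawn in Python (3.11.15) using matplotlib 3.10.9, with pandas 2.3.3 and numpy 2.4.6.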

Additional observations from a re-analysis of the deposited data

How the results depend on the processing

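Pdgfrb was called in limma under every alternative and with each array left out, and Pdgfc, Pdgfra, Pdgfa and the bright Pdgfb probe were called under none. The number of called probes of the set, 1 of 12, was 2 with an offset of 16 or with scaling to the 75th percentile, where Fap was called lower (-1.20 and -1.32). It was 4 with the scanner's processed signal, where Fap, Rgs5 and the dim Pdgfb probe were called lower (-1.70, -2.02 and -1.55). None of these probes called lower cleared the background on any array. The cause was not tested, and the number of called probes was 1 with each array left out. The first Pdgfa probe, at -0.29, turned to 0.45 with the processed signal and to 0.18 with either position adjustment, and ranged from -0.54 to 0.10 with an array left out. The second, at -0.02, turned to 0.03 with median pixel intensity and with the deposited table, 0.17 with scaling to the 75th percentile and 0.19 with either position adjustment, and ranged from -0.20 to 0.23. Pdgfc turned from -0.14 to 0.04 with scaling to the 75th percentile. With the replicate number as a block, Cxcl1 (-1.62, adjusted p = 0.00217 against 0.053), Notch3 (1.19, 0.0116), Flt1 (1.08, 0.024) and Esam (1.22, 0.0465) were called, Pdgfrb had an adjusted p of 0.000235, and no other call among the set and its lists changed. The Flt1 and Esam probes lie in the middle, and without the block they differed by 0.14 and -0.36 (adjusted p = 0.907 and 0.457) after position adjustment.

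The 1629 probes called over the whole array became 1056 without background correction, 843 without the middle of the array, 914 with the position adjustment, 2432 with the other form of it (1 surface, from bright spots), 2518 with scaling to the 75th percentile, 11118 with the processed signal, and 756 to 1791 with an array left out (783 without 1G11-mock replicate 2, and 756, 1059 and 847 without 1G11-SOD3 replicates 1, 2 and 3). The share of called probes that were higher in 1G11-SOD3 was 63.9% as reported, 35.5% without the middle, 44.5% with the position adjustment, 27.8% with its other form and 10.8% with the processed signal. The median difference of all probes, -0.03, was -0.52 with the processed signal and -0.34 with scaling to the 75th percentile. The 19 called list genes ranged from 14 to 27. Signal over background limits the dim Pdgfb probe, the ligand gene Pdgfd and the markers Rgs5, Fap, Cspg4 and Thy1. Their differences are not read as fold changes at these signals.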

Other observations

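A few further values were uneven among arrays of one line and were noted after they were seen. The matrix proteoglycan gene Dcn read 14.78, 14.48 and 14.04 in 1G11-mock but 13.51, 13.59 and 17.05 in 1G11-SOD3, so that 1G11-SOD3 replicate 3 stood above both lines and the mean difference of 0.29 describes no single array. Thy1 and the early gene Ier2 stood apart on another array, 1G11-mock replicate 3, with Ier2 at 10.43 against 8.06 and 8.56 on the other 1G11-mock arrays. The early genes Egr1, Egr2, Fos and Myc also read highest on this array among the 1G11-mock arrays. Egr1 was at 13.61 against 12.37 and 12.10, and Egr2 at 9.99 against 8.70 and 8.33. Jun, in the middle, read lowest there, at 7.60.

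Some probes of lists for other cell types were well above background on all 6 arrays. Itgam, a leukocyte integrin gene, had means of 14.20 and 14.19, Cd3e, a T cell receptor component, of 11 and 10.53, and the keratin gene Krt19 of 16.48 and 15.96, in 1G11-mock and 1G11-SOD3 in this order. The pan-leukocyte gene Ptprc and the epithelial gene Epcam were well above background on no array.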
